A study of Mus musculus with 25 samples.

Results

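The comparison described here sets the distal colon of NEMOIEC-KO Il12b-/- mice against that of Nemofl/fl mice. It asks what colon RNA still differs from control when epithelial NEMO is lost and the IL-12 p40 gene is also disrupted. The groups differ in both NEMO and Il12b, and the series holds no Nemofl/fl Il12b-/- mice. Effects of NEMO loss and of the Il12b-/- genotype therefore cannot be told apart in this comparison. The comparison holds 10 of the 25 RNA-seq libraries of the series, 5 per genotype, chosen by genotype label alone. The Nemofl/fl controls carry loxP-flanked alleles of Ikbkg, the gene that encodes NEMO. NEMOIEC-KO mice lack NEMO in intestinal epithelial cells, and NEMOIEC-KO Il12b-/- mice carry in addition the Il12b-/- genotype. NEMOIEC-KO mice with intact Il12b (5 libraries) are given beside them. The NEMOIEC-KO Il12a-/- and NEMOIEC-KO Il23a-/- groups (5 libraries each) entered the fit to estimate the spread between mice. All mice were 6 weeks old and on a C57BL/6 background, and each library came from 1 mouse. The labels name neither the Cre line nor the design of the Il12b allele.

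NEMO is the regulatory subunit of the IκB kinase (IKK) complex, which activates the transcription factor NF-κB and restrains cell death downstream of TNF receptors and Toll-like receptors. Its loss in gut epithelium is known for epithelial cell death, barrier failure and colitis. The p40 protein pairs with p35 to form IL-12, which drives interferon-gamma production by lymphocytes, and with p19 to form IL-23, which supports type 17 responses. Interferon-gamma and type I interferons induce partly overlapping sets of genes through STAT transcription factors.

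Expression was measured as FPKM (fragments per kilobase of transcript, relative to all mapped fragments, so a level per length). A gene was tested if 5 or more of the 25 libraries reached 0.2 FPKM, which held for 19266 of 49452 genes. Differences are on the log2(FPKM + 0.5) scale, which understates the change of weakly expressed genes, and were tested with limma and Benjamini-Hochberg adjustment over all genes tested, with adjusted p below 0.05 as the threshold. Values after ± are SDs over the 5 mice of a group. The FPKM of the 10 libraries summed to between 653776 and 708506, and absolute read depth is unknown. All 30 absorptive colonocyte markers were above 0 in all 10 libraries. Mitochondrially encoded genes held 6.37% ± 2.25 (SD, n = 5) of the FPKM in Il12b-/- and 9.94% ± 2.30 (SD, n = 5) in Nemofl/fl libraries (exact permutation test, two-sided, p = 0.0238, adjusted p = 0.0714). Xist RNA above 1 FPKM, a sign of a female mouse, was found in 2 of 5 Il12b-/- libraries (replicates 1 and 2) and 0 of 5 Nemofl/fl libraries.

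2 features of the libraries stand before every result. All Nemofl/fl libraries carry the library code K002000081 and all Il12b-/- libraries K002000079, so code and genotype cannot be told apart within these 10 libraries. Of the NEMOIEC-KO libraries, 2 carry the K002000079 code and 3 the K002000081 code, which allows a code term in the fit of all 25 libraries. That term raised the median standard error from 0.145 to 0.253. In addition, Il12b-/- replicate 2 stood apart from its group, with a mitochondrial share of 2.65%. The median of its correlations with each other library of its group was 0.962, against 0.979 to 0.981 for the other 4. Among controls, Nemofl/fl replicate 1 had the lowest median correlation (0.971) and the highest mitochondrial share (13.3%).

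In the Il12b-/- colon 48 genes were higher (0.249% of the genes tested) and 23 lower (0.119%) than in Nemofl/fl. Together these 71 genes are 0.369% of those tested, and 2708 (14.1%) had an unadjusted p below 0.05. In the same fit NEMOIEC-KO with intact Il12b differed from Nemofl/fl at 6202 genes (32.2%), and Il12b-/- differed from NEMOIEC-KO at 3833 (19.9%). These comparisons share libraries with the one described here. At least 2-fold differences were seen at 29 of the higher and 13 of the lower genes. In 62 of the 71 genes all libraries of one group lay above all of the other, and 55 were protein coding. Over all genes tested, the Il12b-/- libraries lay without overlap above the controls at 2.89% and below them at 1.59%. Rescaling changed the balance of directions: higher genes were 67.6% of calls with FPKM as deposited, 51.5% with median-of-ratios scaling, 49.5% with quantile normalization and 50.8% after leaving out mitochondrial genes. A fit of only the 10 libraries gave 67 higher and 17 lower genes (79.8% higher), and 33 of the 71 genes were among them. All 71 genes kept their direction in every setting in which they were tested. With the library code as a term, 10 genes remained past the threshold: Il12b, Lrmda, Tmem51os1, Zfp990, Zfp991, Igsf23 and Tescl higher, and Ikbkg, Wnt8b and Ablim1 lower. Without Il12b-/- replicate 2 the count was 26 higher and 11 lower, and without Il12b-/- replicate 1 it was 92 higher and 28 lower. Without Nemofl/fl replicate 3 the counts were 24 and 15, without Nemofl/fl replicate 4 they were 28 and 14, and without Nemofl/fl replicate 5 they were 30 and 14.

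**Figure D1:**
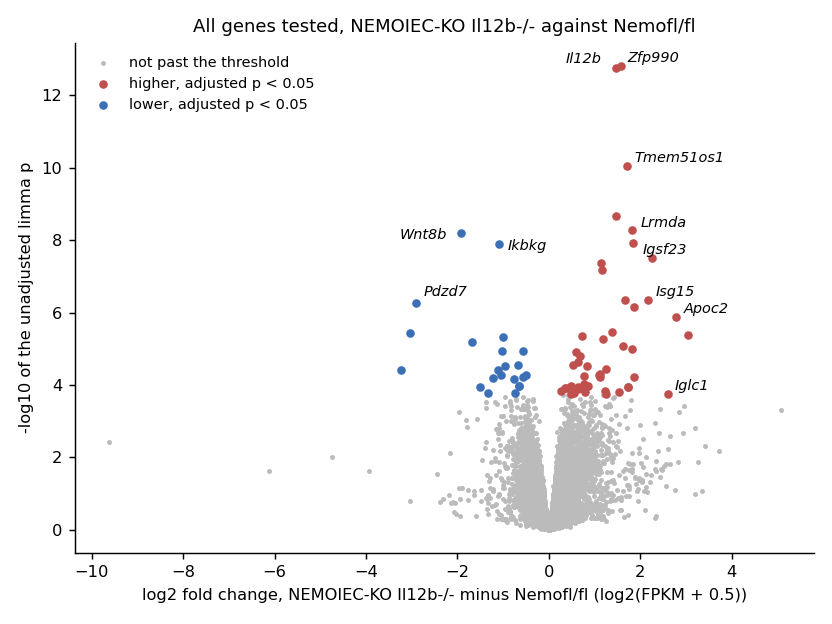
Each point is 1 of the 19266 genes tested, by log2 fold change (NEMOIEC-KO Il12b-/- minus Nemofl/fl, on log2(FPKM + 0.5)) and −log10 of the unadjusted limma p. The 48 higher genes are red and the 23 lower genes blue, with Il12b and Zfp990 at the top and Ikbkg and Wnt8b leading the lower side.

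The targeted genes checked the labels. Ikbkg (ENSMUSG00000004221, chromosome X, 74393290 to 74453854, GRCm38) stood at 11.0, 8.27, 8.35, 9.28 and 8.49 FPKM in the Nemofl/fl libraries and at 3.81, 3.65, 3.76, 4.32 and 4.37 FPKM in the Il12b-/- libraries. No library of one group reached the other, and Ikbkg fell by 1.09 on the log2 scale (SE 0.13, limma adjusted p = 3.16e-05). In NEMOIEC-KO it averaged 4.08 ± 1.1 FPKM. In whole colon the remaining RNA also includes cells outside the epithelium, and fewer cells of a type cannot be told apart from less RNA per cell, here and in every result that follows. Il12b (ENSMUSG00000004296, chromosome 11, 44400063 to 44414033) ran against its label. It stood at 0.793, 0.790, 1.29, 0.946 and 1.15 FPKM in the libraries labelled Il12b-/-, and at most at 0.0669 FPKM in Nemofl/fl. The log2 fold change was 1.47 (SE 0.10, limma adjusted p = 1.69e-09), and the highest of the 20 other libraries reached 0.236 FPKM. Gene-level FPKM does not show which part of the transcript is present. The RNA of the partner subunits was not past the threshold, with Il12a (p35) at 0.331 ± 0.0891 against 0.423 ± 0.373 FPKM and Il23a (p19) at 0.251 ± 0.0905 against 0.285 ± 0.0810 FPKM in Nemofl/fl and Il12b-/- (limma adjusted p = 0.915 and 0.9).

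Of 35 tested genes of the IKK complex and its NF-κB regulators, 1 was higher and 2 were lower (8.57% called, against 0.369% of all genes). These include Ikbkg, the targeted gene, whose call follows from the design, so the share is not a result about the list. The median log2 fold change was 0.02, against 0.03 over all genes. Beside Ikbkg, the lower gene was Tnip1, which encodes the ubiquitin-binding protein ABIN-1 that binds NEMO and restrains NF-κB signalling and cell death. Tnip1 (chromosome 11, 54910785 to 54962917) stood at 90.9, 78.8, 84.0, 96.3 and 92.9 FPKM in Nemofl/fl and at 59.9, 41.9, 46.1, 70.0 and 68.1 FPKM in Il12b-/-. Every Il12b-/- library lay under every control, and Tnip1 fell by 0.65 on the log2 scale (SE 0.14, limma adjusted p = 0.0403). NEMOIEC-KO averaged 44.5 ± 7.35 FPKM. The higher gene was Map3k14, which encodes NIK, the kinase that starts the alternative NF-κB pathway without NEMO. Map3k14 (chromosome 11, 103219762 to 103267472) stood at 2.15, 4.07, 2.87, 3.57 and 3.32 FPKM in Nemofl/fl and at 4.76, 6.31, 4.68, 5.00 and 4.97 FPKM in Il12b-/- (log2 fold change 0.63, SE 0.12, limma adjusted p = 0.0151), again without overlap, and averaged 5.07 ± 0.343 FPKM in NEMOIEC-KO. Tnip1 did not pass without Il12b-/- replicate 2 or 3 or Nemofl/fl replicate 1, 3, 4 or 5 (limma adjusted p up to 0.137), and Map3k14 did not without Il12b-/- replicate 2 or Nemofl/fl replicate 3 (up to 0.0611). With the library code term their differences were -0.98 and 0.67 (limma adjusted p = 0.225 and 0.294).

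**Figure D2:**
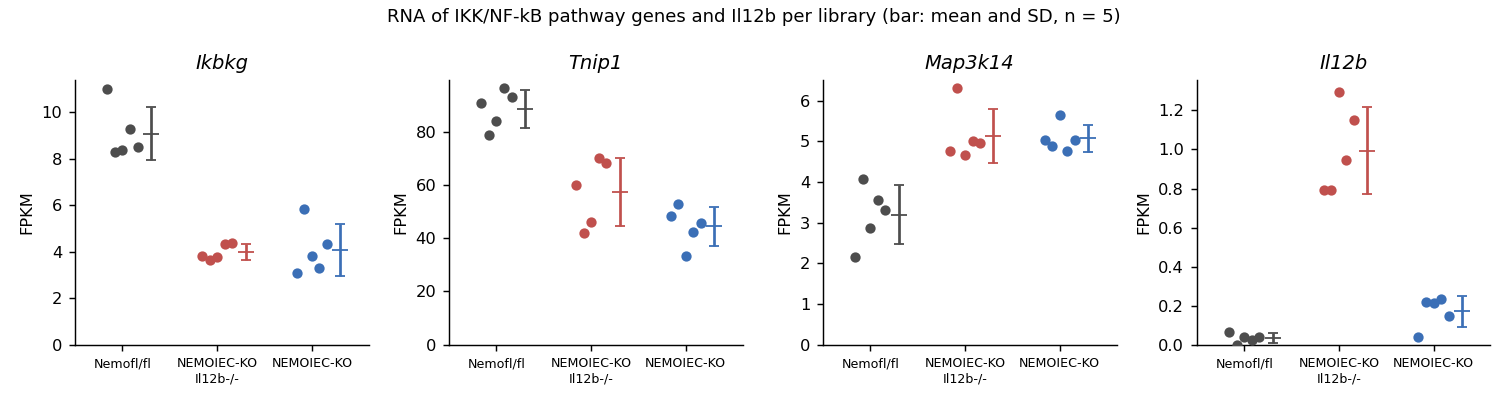
FPKM of Ikbkg, Tnip1, Map3k14 and Il12b in each library (points) of Nemofl/fl, NEMOIEC-KO Il12b-/- and NEMOIEC-KO, with bars at mean ± SD (n = 5). Ikbkg, Tnip1 and Map3k14 averaged 3.98, 57.2 and 5.14 FPKM in Il12b-/- and 4.08, 44.5 and 5.07 FPKM in NEMOIEC-KO, while Il12b averaged 0.994 FPKM in the libraries labelled Il12b-/-.

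None of the 37 NF-κB target genes was called (0 by limma, with 9 at an unadjusted p below 0.05), nor any of 31 cell death genes (5) or 16 inflammatory cytokines (3). Over all genes tested 0.369% were called and 14.1% had an unadjusted p below 0.05. At that rate 0 calls in lists of this size do not show that nothing changed. In NEMOIEC-KO 25, 18 and 11 of the genes of the 3 lists were higher than in Nemofl/fl. Their median log2 fold changes were 0.10, 0.06 and 0.11 in Il12b-/- and 1.06, 0.36 and 1.12 in NEMOIEC-KO. Il18, an epithelial cytokine of the IL-1 family, stood at 163, 136, 160, 136 and 178 FPKM in Nemofl/fl and at 122, 108, 92.4, 116 and 99.5 FPKM in Il12b-/-. All Il12b-/- libraries lay below all controls, but the difference did not pass over all genes (log2 fold change -0.52, limma adjusted p = 0.0944), and NEMOIEC-KO averaged 116 ± 20.2 FPKM. Tnfaip3, the NF-κB inhibitor A20, was at 18.6 ± 4.71 and 11.6 ± 1.39 FPKM in Nemofl/fl and Il12b-/- (limma adjusted p = 0.0897). It was chosen after its values were seen.

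The promoters of 3 called genes are shown because they hold letters of motifs known for the interferon and NF-κB pathways. Sequences are RefSeq promoters (build GRCm38.p6), read 5′ to 3′ on the gene's strand, from 250 bases before to 50 bases after the annotated start. Capitals mark the interferon-stimulated response element (ISRE, searched as GAAANNGAAA on both strands) in Isg15 (chr4:156200769-156201068, minus strand) and Oas3 (chr5:120777610-120777909, minus strand), and the κB consensus, both strands, in Tnip1 (chr11:54962891-54963190, minus strand).
Isg15: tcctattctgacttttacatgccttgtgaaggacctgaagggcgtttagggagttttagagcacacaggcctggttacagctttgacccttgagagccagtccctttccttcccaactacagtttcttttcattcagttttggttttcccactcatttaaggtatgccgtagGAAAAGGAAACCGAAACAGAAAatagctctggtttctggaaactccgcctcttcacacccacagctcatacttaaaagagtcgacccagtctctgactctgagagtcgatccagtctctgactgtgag
Oas3: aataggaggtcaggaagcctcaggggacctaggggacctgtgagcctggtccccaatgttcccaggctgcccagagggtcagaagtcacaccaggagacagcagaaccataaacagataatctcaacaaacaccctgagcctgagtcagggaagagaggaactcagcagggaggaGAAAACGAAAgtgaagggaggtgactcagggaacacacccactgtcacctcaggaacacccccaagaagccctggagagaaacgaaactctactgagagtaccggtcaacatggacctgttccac
Tnip1: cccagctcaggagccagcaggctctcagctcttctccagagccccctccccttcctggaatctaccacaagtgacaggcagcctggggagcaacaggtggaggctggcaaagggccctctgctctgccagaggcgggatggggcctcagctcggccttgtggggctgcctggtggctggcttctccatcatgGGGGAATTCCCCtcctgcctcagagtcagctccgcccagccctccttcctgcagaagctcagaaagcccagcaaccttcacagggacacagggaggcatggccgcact
Overlapping matches are merged in the capitals: Isg15 holds 3 overlapping ISRE matches, the nearest starting 66 bases before the start, Oas3 holds 1 at 75 bases, and Tnip1 holds 3 overlapping κB matches at 56 to 58 bases. The ISRE letters occur in 3.44% of all 32851 promoters in the table and the κB consensus in 8.46%. Of the 71 called genes, 45 had a promoter in the table. Of these, 4 held an ISRE match (Isg15, Oas3, Apol9a and Apol9b, all higher) and 5 a κB match. A gamma-activated site (GAS, TTCNNNGAA, both strands) was found in 1 of the 45, Tnip1. Per gene, over 27025 genes with at least 1 promoter in the table, the shares were 3.99% for ISRE, 9.55% for κB and 9.55% for GAS. No ISRE match lay in the promoters of Oasl2 and Ifi47, and no κB match in those of Map3k14 and Ikbkg. A match describes the sequence and is not a measured binding site.

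Of 27 type I interferon response genes tested, 4 were higher and 0 lower (14.8% called, against 0.369% of all genes). The median log2 fold change was 0.52, and 13 lay without overlap above the controls, as 2.89% of all genes did. In NEMOIEC-KO 26 of the 27 were higher, with a median of 1.45. Isg15, a ubiquitin-like modifier (chromosome 4, 156199424 to 156200818), stood at 5.47, 8.17, 8.90, 4.5 and 5.33 FPKM in Nemofl/fl and at 24.4, 29.2, 27.7, 44.2 and 28.3 FPKM in Il12b-/-. All 5 Il12b-/- libraries lay above all controls, with replicate 4 the highest (log2 fold change 2.18, SE 0.31, limma adjusted p = 0.000686). In NEMOIEC-KO it stood at 39.4 and 106 FPKM in the libraries with the K002000079 code and at 68.4, 42.4 and 75.6 FPKM in those with the K002000081 code. Oas3, an oligoadenylate synthetase that senses double-stranded RNA, averaged 0.474 ± 0.194 FPKM in Nemofl/fl, 3.06 ± 1.28 FPKM in Il12b-/- and 13.3 ± 6.22 FPKM in NEMOIEC-KO (log2 fold change 1.83 for Il12b-/- against Nemofl/fl, limma adjusted p = 0.00786). Oasl2, a related protein, stood at 9.98, 13.8, 12.2, 9.41 and 9.69 FPKM in Nemofl/fl and at 36.2, 30.2, 24.4, 59.1 and 31.5 FPKM in Il12b-/- (log2 fold change 1.62, limma adjusted p = 0.00697). Replicate 4 was the highest Il12b-/- library for Oas3 and Oasl2 too. Rtp4, a chaperone of membrane receptors that interferon induces, stood at 8.25, 7.83, 8.29, 6.20 and 7.37 FPKM in Nemofl/fl and at 17.1, 13.0, 15.3, 27.8 and 18.5 FPKM in Il12b-/-, without overlap (log2 fold change 1.18, limma adjusted p = 0.00482). Rtp4 was named after its values were seen.

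Apol9a and Apol9b, near-identical apolipoprotein L genes between which reads may be split, followed the same order. Apol9a rose from 1.19 ± 0.399 to 5.83 ± 2.48 FPKM (log2 fold change 1.85, SE 0.27, limma adjusted p = 0.000878) and averaged 10.8 ± 4.62 FPKM in NEMOIEC-KO. Isg15, Oas3, Oasl2, Rtp4, Apol9a and Apol9b passed the threshold without each of the 10 libraries in turn. With the library code term none of the 6 did, at log2 fold changes of 2.08, 1.29, 1.47, 0.88, 1.75 and 1.33 (limma adjusted p from 0.292 to 0.394).

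Of 39 interferon-gamma response genes tested, 1 was higher and 0 lower (2.56% called, against 0.369% of all genes). The median log2 fold change was 0.38, whereas in NEMOIEC-KO 37 were higher with a median of 2.73. The called gene was Ifi47, an immunity-related GTPase, at 1.40, 2.46, 1.87, 1.74 and 1.41 FPKM in Nemofl/fl and at 6.60, 12.5, 6.78, 7.22 and 6.73 FPKM in Il12b-/- (log2 fold change 1.87, SE 0.38, limma adjusted p = 0.026). Replicate 2 was the highest, every Il12b-/- library lay above every control, and NEMOIEC-KO averaged 77.5 ± 26.3 FPKM. Ifi47 did not pass without Il12b-/- replicate 2, 3 or 4 or Nemofl/fl replicate 1, 3, 4 or 5 (limma adjusted p up to 0.105). It also lies within 5 Mb of Il12b. In 14 of the 39 genes all Il12b-/- libraries lay above all controls, and in 0 below, against 2.89% and 1.59% of all genes. Among the 14 were the immunoproteasome genes Psmb8, Psmb9 and Psmb10 and the peptide transporter genes Tap1 and Tap2. Ido1, which degrades tryptophan, overlapped between the groups and averaged 2.30 ± 1.30 FPKM in Nemofl/fl, 1.94 ± 0.946 FPKM in Il12b-/- and 245 ± 236 FPKM in NEMOIEC-KO. Ido1 was chosen after its values were seen.

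Antigen presentation by MHC class II showed 1 higher gene of 12 (8.33% called, against 0.369% of all genes). The list median was 0.84, against 3.19 in NEMOIEC-KO. H2-DMb1, a chain of the peptide-loading factor H2-DM with a close copy, H2-DMb2, between which reads may be split, stood at 5.91, 6.78, 5.91, 6.22 and 4.30 FPKM in Nemofl/fl and at 11.4, 21.1, 14.5, 13.8 and 11.6 FPKM in Il12b-/-. All Il12b-/- libraries were above all controls (log2 fold change 1.22, limma adjusted p = 0.0469), and NEMOIEC-KO averaged 153 ± 25.8 FPKM. H2-DMb1 passed in 2 of the 10 fits that left out 1 library, those without Il12b-/- replicate 1 or 5, with adjusted p up to 0.161 in the others, which left out Il12b-/- replicate 2, 3 or 4 or any 1 of the 5 Nemofl/fl libraries.

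**Figure D3:**
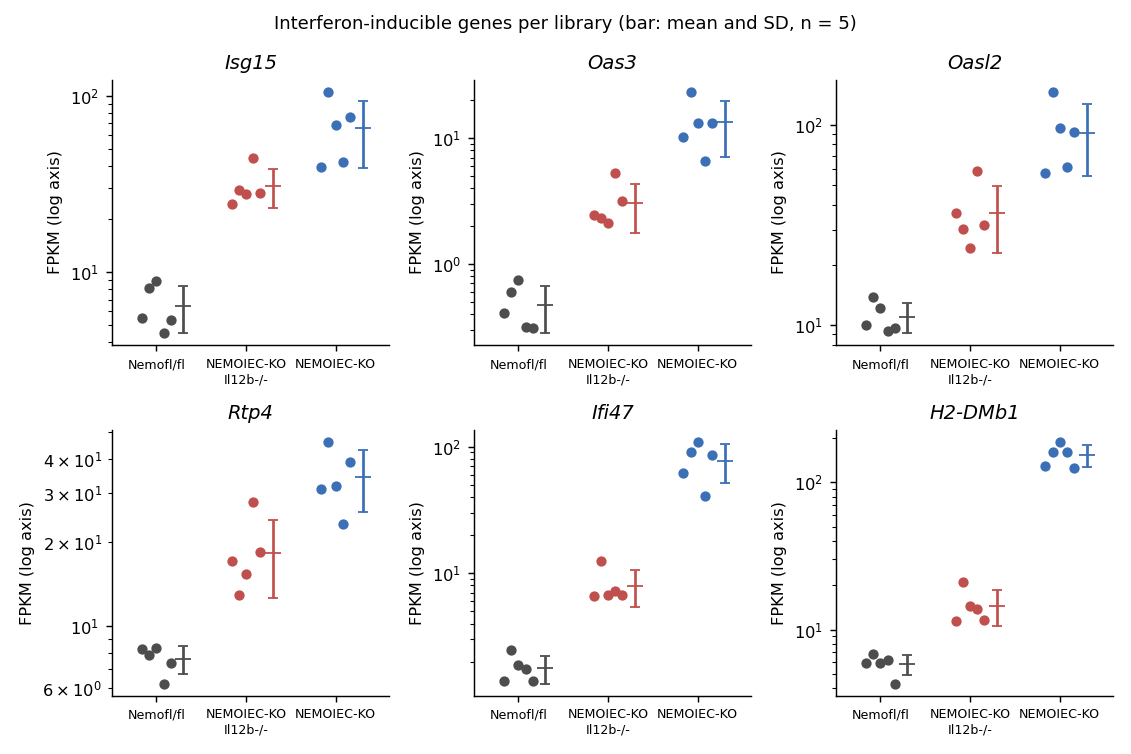
FPKM (log axis) of Isg15, Oas3, Oasl2, Rtp4, Ifi47 and H2-DMb1 in each library (points) of Nemofl/fl, NEMOIEC-KO Il12b-/- and NEMOIEC-KO, with bars at mean ± SD (n = 5). In all 6 panels the Il12b-/- libraries lie above the controls, and for Ifi47 and H2-DMb1 they lie far below NEMOIEC-KO, at means of 7.97 and 14.5 against 77.5 and 153 FPKM.

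Plasma cell markers had the highest list median in Il12b-/-, at 1.48. Of these markers 2 of 17 were higher and 0 lower (11.8% called, against 0.369% of all genes). In 8 of the 17 all Il12b-/- libraries lay above all controls, as they did at 2.89% of all genes. In NEMOIEC-KO the median was 1.92. Mzb1, a chaperone of antibody assembly, stood at 5.93, 3.03, 3.05, 2.64 and 3.15 FPKM in Nemofl/fl and at 10.9, 11.8, 11.7, 19.7 and 10.2 FPKM in Il12b-/- (log2 fold change 1.73, limma adjusted p = 0.0403). Iglc1, an immunoglobulin lambda constant gene with close copies, stood at 43.8, 18.8, 19.8, 14.0 and 22.0 FPKM in Nemofl/fl and at 83.0, 77.5, 87.7, 155 and 516 FPKM in Il12b-/- (log2 fold change 2.6, limma adjusted p = 0.0489). Neither gene's groups overlapped, and replicate 5 was far the highest for Iglc1. Mzb1 passed only without Il12b-/- replicate 1 or 5 or Nemofl/fl replicate 1, among the 10 libraries left out in turn, and Iglc1 only without Il12b-/- replicate 1 or Nemofl/fl replicate 1 (limma adjusted p up to 0.108 and 0.131 otherwise). The summed FPKM of the list ranged from 1158 to 3853 in Nemofl/fl and from 4166 to 7251 in Il12b-/-.

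B cell markers were called at 0 of 17 genes by limma (against 0.369% of all genes). At an unadjusted p below 0.05 there were 13, against 14.1% of all genes. All 17 had positive fold changes (median 1.03, against 0.25 in NEMOIEC-KO). Their summed FPKM ranged from 104 to 211 in Nemofl/fl and from 149 to 559 in Il12b-/-, and no marker was at 0. Cd79a, the signalling chain of the B cell receptor, stood at 3.35, 15.0, 10.1, 8.4 and 5.26 FPKM in Nemofl/fl and at 7.49, 70.6, 20.8, 38.2 and 14.8 FPKM in Il12b-/-, with replicate 2 the highest and the groups overlapping (limma adjusted p = 0.187). Cd79a was chosen after its values were seen. T cell markers were called at 0 of 22 by limma (16 at an unadjusted p below 0.05, against the same shares of all genes, median 0.65). Whether the B cell RNA takes part in the calls above was not tested. With the B cell score as a covariate 19 genes were higher and 11 lower, and Isg15 and Rtp4 passed but Oas3 and Oasl2 did not, so that 2 of the 4 type I interferon genes called lost the threshold. Mzb1, Iglc1, Ifi47 and H2-DMb1 did not pass with this covariate either. Oasl2 also did not pass without the Il12b-/- libraries with Xist (replicates 1 and 2).

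Of 23 monocyte and macrophage markers 1 was higher (4.35% called, against 0.369% of all genes). The list median was 0.51, against 1.08 in NEMOIEC-KO. Ly6c2, a surface protein of inflammatory monocytes with the near-identical neighbour Ly6c1, stood at 8.02, 2.98, 2.89, 4.19 and 2.75 FPKM in Nemofl/fl and at 9.33, 11.5, 12.4, 16.3 and 12.0 FPKM in Il12b-/- (log2 fold change 1.54, limma adjusted p = 0.0477). The groups did not overlap, with Nemofl/fl replicate 1 the closest to the Il12b-/- libraries. Ly6c2 passed only without Il12b-/- replicate 1 or Nemofl/fl replicate 1 and not without any of the other 8 libraries (limma adjusted p up to 0.129). In 6 of the 23 markers all Il12b-/- libraries lay above all controls, as they did at 2.89% of all genes. The 3 complement C1q chain genes C1qa, C1qb and C1qc were named after their values were seen. They lay above all controls in every Il12b-/- library without passing the test over all genes. Of 20 neutrophil markers 0 were called by limma (against 0.369% of all genes). At an unadjusted p below 0.05 there was 1, against 14.1% of all genes. The list median was 0.19, where NEMOIEC-KO had 17 higher and a median of 1.92.

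Among the epithelial and chemokine lists, by limma 0 of 22 wound-associated genes (2 at an unadjusted p below 0.05), 0 of 25 antimicrobial defence genes (4), 0 of 25 chemokines (6), 0 of 19 goblet cell markers (2), 0 of 13 tuft cell markers (1), 0 of 20 enteroendocrine markers (0), 0 of 17 stem cell and Wnt target genes (1) and 0 of 25 proliferation genes (1) were called. None of 39 drug and xenobiotic metabolism genes was called (6 at an unadjusted p below 0.05, median -0.17), of which 29 were lower in NEMOIEC-KO (median -1.02), and none of 28 fatty acid oxidation genes (6, median -0.02), of which 15 were lower in NEMOIEC-KO. For every list of this paragraph, the shares over all genes tested were 0.369% called and 14.1% at an unadjusted p below 0.05. At that rate 0 calls in lists of this size do not show that nothing changed. The antimicrobial list had a median of 0.09 in Il12b-/- and 2.17 in NEMOIEC-KO. Ang4, an angiogenin secreted by Paneth and goblet cells, had the smallest p of the antimicrobial list and stood at 0.472, 0.144, 0.0437, 0.0779 and 0.323 FPKM in Nemofl/fl and at 3.57, 3.62, 9.61, 6.09 and 3.58 FPKM in Il12b-/-, without overlap, yet did not pass over all genes (log2 fold change 2.96, SE 0.71, limma adjusted p = 0.0672). NEMOIEC-KO averaged 2.31 ± 0.799 FPKM of Ang4. Smooth muscle markers were negative in all 14 genes with 0 called by limma (0 at an unadjusted p below 0.05, median -0.41), and mitochondrially encoded genes had a median of -0.55 with 0 of 13 called (7).

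**Figure D4:**
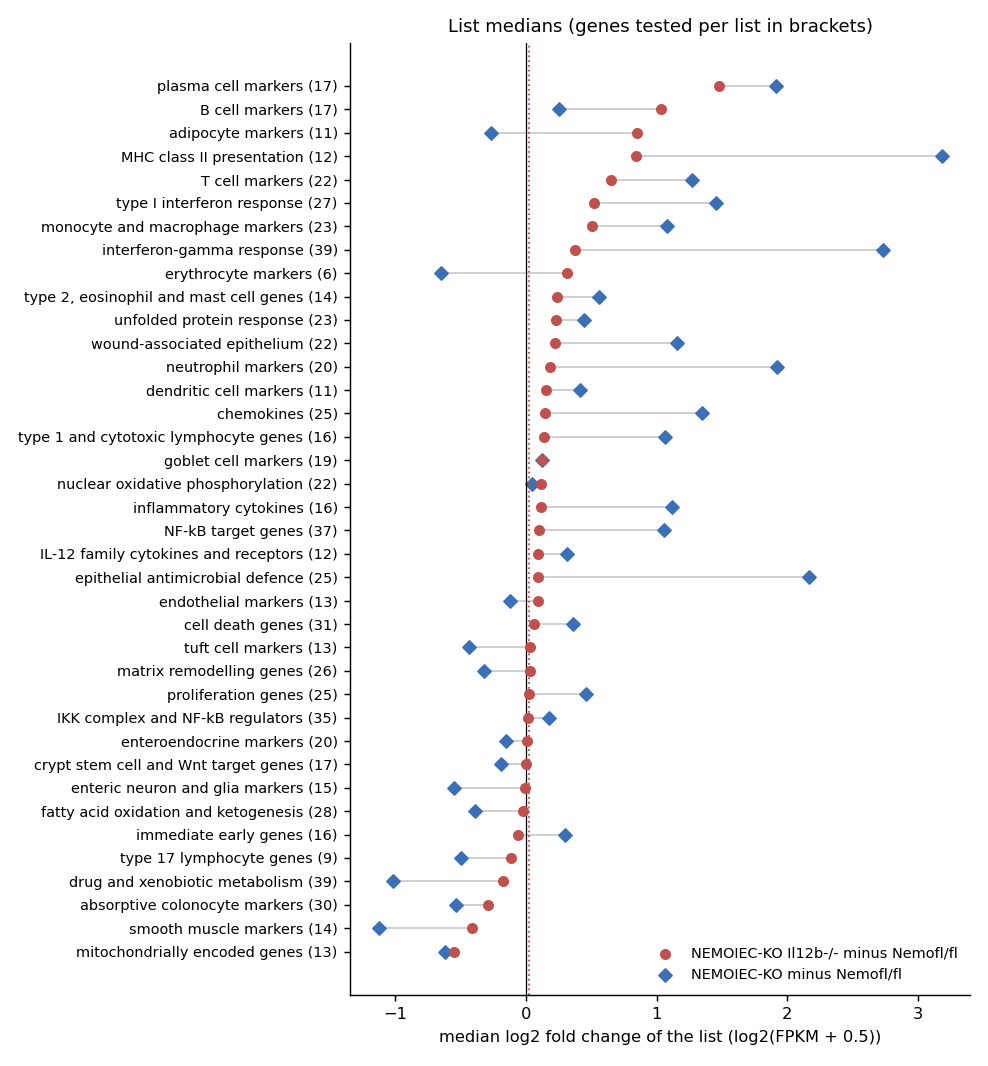
Median log2 fold change of each gene list in NEMOIEC-KO Il12b-/- (red circles) and in NEMOIEC-KO (blue diamonds), both against the same Nemofl/fl libraries, with the number of genes tested in brackets and the median of all genes (0.03) as a dotted line. Interferon-gamma response, MHC class II, neutrophil and antimicrobial lists lie at 2.73, 3.19, 1.92 and 2.17 in NEMOIEC-KO and at 0.38, 0.84, 0.19 and 0.09 in Il12b-/-, while plasma cell markers lie at 1.92 and 1.48.

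Of 30 absorptive colonocyte markers 1 was lower (3.33% called, against 0.369% of all genes), with a list median of -0.29. In NEMOIEC-KO 14 were lower and 4 higher, with a median of -0.53. The summed FPKM of the list had a median of 13479 in Il12b-/- and 12438 in Nemofl/fl libraries. Ceacam20, an adhesion protein of the intestinal brush border (chromosome 7, 19965412 to 19991104), stood at 95.4, 72.1, 96.2, 91.3 and 98.2 FPKM in Nemofl/fl and at 32.4, 15.6, 51.3, 57.2 and 57.3 FPKM in Il12b-/-. It fell by 1.21 on the log2 scale (SE 0.25, limma adjusted p = 0.027) without overlap, and NEMOIEC-KO averaged 105 ± 12.7 FPKM. Ceacam20 did not pass without Nemofl/fl replicate 1, 3, 4 or 5 (limma adjusted p up to 0.0793). It belongs to the cluster of called genes on chromosome 7 that is described below. Its neighbour Igsf23, an immunoglobulin superfamily gene (chromosome 7, 19937305 to 19950756), moved the other way, from 15.4, 14.2, 24.3, 11.0 and 13.3 FPKM to 70.8, 55.6, 49.6, 53.4 and 50.7 FPKM (log2 fold change 1.85, SE 0.21, limma adjusted p = 3.16e-05). All 5 Il12b-/- libraries lay above the 38.97 FPKM reached by the highest of the 20 other libraries, and Igsf23 passed in every setting.

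Many of the called genes lay close together on a few chromosomes. When called genes less than 5 Mb apart were joined, a distance used after the values were seen, 32 of the 71 fell into 4 clusters of 3 or more. The cluster on chromosome 7 (16944682 to 24386690) held 14 called genes of 93 tested (15.1%), that on chromosome 4 (140906344 to 148444771) 9 of 78 (11.5%), that on chromosome 11 around Il12b 5 of 57 (8.77%) and that on chromosome 15 (71795795 to 77736382) 4 of 115 (3.48%). The windows were drawn around the called genes, so these shares are a description. Apoc2, an activator of lipoprotein lipase on chromosome 7, stood at 16.3, 8.60, 20.6, 15.6 and 20.9 FPKM in Nemofl/fl and at 182, 141, 113, 80.2 and 72.8 FPKM in Il12b-/- (log2 fold change 2.79, SE 0.43, limma adjusted p = 0.00158). All 5 Il12b-/- libraries exceeded the controls, and Apoc2 averaged 49.6 ± 34.2 FPKM in NEMOIEC-KO.

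On chromosome 4 the zinc finger gene Zfp991 stood at 1.21, 0.637, 0.530, 0.459 and 0.340 FPKM in Nemofl/fl and at 3.97, 6.28, 5.47, 7.01 and 2.43 FPKM in Il12b-/- (log2 fold change 2.25, SE 0.28, limma adjusted p = 6.69e-05). Its relative Zfp990 averaged 0.0176 ± 0.0111 FPKM in Nemofl/fl and 1.05 ± 0.278 FPKM in Il12b-/-, against 0.0493 ± 0.0738, 0.0395 ± 0.0473 and 0.0106 ± 0.0238 FPKM in NEMOIEC-KO, Il12a-/- and Il23a-/-. Both belong to a family of similar genes between which reads may be split. Tmem51os1, an antisense transcript of the membrane protein gene Tmem51, rose from 0.642 ± 0.149 to 3.29 ± 0.824 FPKM (limma adjusted p = 5.67e-07), and whether the counting used strand is not given in the sources used here. Zfp990, Zfp991 and Tmem51os1 lay above all 20 other libraries in every Il12b-/- library. In all, 15 of the 48 higher genes did so, as 0.109% of all genes tested did, and 11 of those 15 lie in the chromosome 4 and chromosome 7 clusters. None of the 23 lower genes lay below all 20 others, as 0.026% of all genes tested did.

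Near Il12b itself, 64 tested genes started within 5 Mb, and 4 of them were called (6.25%, against 0.369% of all genes). Among them were Il12b, the targeted gene, and Ifi47, which were higher, and Pttg1, which was lower. Pttg1, which encodes securin, an inhibitor of chromosome separation, stood at 47.5, 46.0, 44.8, 46.9 and 46.8 FPKM in Nemofl/fl and at 20.9, 42.7, 20.9, 20.1 and 16.0 FPKM in Il12b-/-. It fell by 1.01 on the log2 scale (SE 0.18, limma adjusted p = 0.00834) without overlap. Replicate 2 lay near the controls and the other 4 libraries at 20.9 FPKM or less, while the means in NEMOIEC-KO, Il12a-/- and Il23a-/- were 38.1 ± 4.56, 50.1 ± 5.83 and 41.2 ± 9.3 FPKM.

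**Figure D5:**
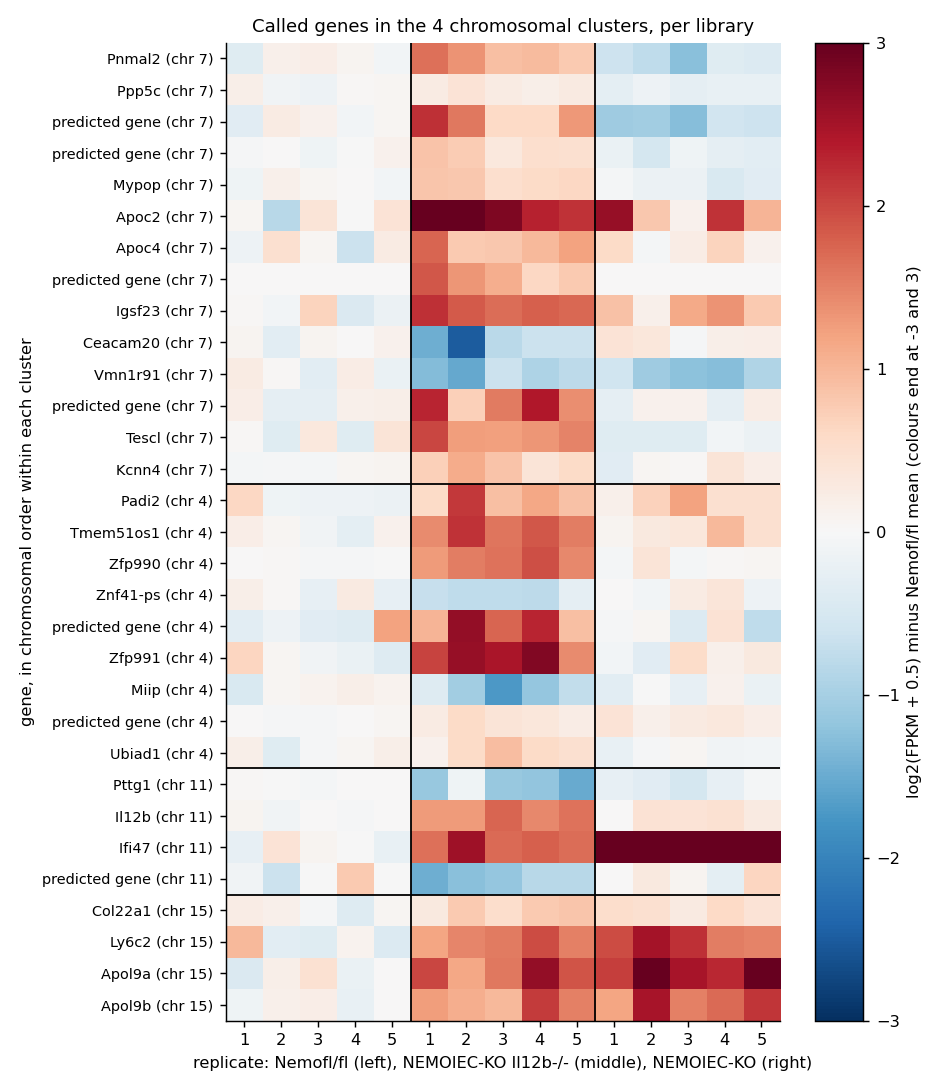
Log2(FPKM + 0.5) minus the Nemofl/fl mean, as colour from -3 (blue) to 3 (red), for called genes of the 4 chromosomal clusters in each replicate of Nemofl/fl, NEMOIEC-KO Il12b-/- and NEMOIEC-KO. Many genes of the chromosome 4 and 7 clusters are coloured mainly in the Il12b-/- columns. Exceptions include Vmn1r91, lower in both NEMO-deficient groups, Apoc2 and Igsf23, higher in both, and Pnmal2, lower in NEMOIEC-KO. Ifi47, Ly6c2, Apol9a and Apol9b are red in both NEMO-deficient groups.

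Among the other lower genes, Wnt8b and Pdzd7 are neighbours on chromosome 19. Wnt8b, a Wnt ligand, stood at 1.26, 1.21, 1.90, 1.54 and 1.21 FPKM in Nemofl/fl and was listed at 0 in all 5 Il12b-/- libraries (limma adjusted p = 2.09e-05), with 0.5, 0.132, 0.0681, 0.131 and 0.229 FPKM in NEMOIEC-KO. Pdzd7, a scaffold protein of sensory hair cells, stood at 8.22, 8.17, 9.26, 6.70 and 8.25 FPKM in Nemofl/fl and at 0.797, 0.758, 0.705, 0.459 and 0.537 FPKM in Il12b-/- (log2 fold change -2.91, SE 0.42, limma adjusted p = 0.000746). Neither gene's groups overlapped. In NEMOIEC-KO, Pdzd7 ranged from 0.908 to 6.37 FPKM, and the Il12a-/- and Il23a-/- means were 3.92 ± 1.91 and 3.63 ± 2.32 FPKM. Vmn1r91, a vomeronasal receptor gene on chromosome 7, averaged 1.14 ± 0.275 FPKM in Nemofl/fl and 0.307 ± 0.198 FPKM in Il12b-/- (limma adjusted p = 0.0253), and 0.311 ± 0.163 FPKM in NEMOIEC-KO.

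Npas2, a transcription factor of the circadian clock, fell from 6.91 ± 1.51 to 3.77 ± 0.266 FPKM (limma adjusted p = 0.0288) and averaged 5.99 ± 1.14 FPKM in NEMOIEC-KO. Ablim1, an actin-binding protein, stood at 25.7, 26.3, 25.8, 41.5 and 26 FPKM in Nemofl/fl and at 16.4, 18.6, 17.8, 19.3 and 17.0 FPKM in Il12b-/- (log2 fold change -0.67, SE 0.13, limma adjusted p = 0.0168). The groups did not overlap, and Ablim1 passed without each library in turn and with the library code term. It did not pass in the fit of only the 10 libraries, without the Il12b-/- libraries with Xist, with a sex term or with the B cell covariate (limma adjusted p up to 0.121). Cntd1, a cyclin-domain protein of meiosis (1.12 ± 0.0886 against 0.473 ± 0.0494 FPKM, limma adjusted p = 0.0482), did not pass when any 1 of the 10 libraries was left out (up to 0.137). Dennd5b, a regulator of Rab GTPases, fell from 1.16 ± 0.238 to 0.622 ± 0.118 FPKM (limma adjusted p = 0.026). Vmn1r91 did not pass without Il12b-/- replicate 2 or Nemofl/fl replicate 1 or 4, Npas2 without Il12b-/- replicate 2, 3 or 4 or Nemofl/fl replicate 1, 3 or 5, and Dennd5b without Il12b-/- replicate 3 or 5 or Nemofl/fl replicate 1, 3 or 4 (limma adjusted p up to 0.101, 0.1 and 0.0735).

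Outside these clusters, Lrmda, a gene linked to melanocyte differentiation, rose. It stood at 0, 0.262, 0.0411, 0.0732 and 0.0731 FPKM in Nemofl/fl and at 1.34, 1.21, 2.24, 1.74 and 1.38 FPKM in Il12b-/- (log2 fold change 1.81, SE 0.20, limma adjusted p = 2.04e-05), and passed in every setting. Lrmda averaged 0.248 ± 0.244, 0.209 ± 0.105 and 0.807 ± 0.344 FPKM in NEMOIEC-KO, Il12a-/- and Il23a-/-. The highest of the 20 other libraries reached 1.17 FPKM, so Lrmda was also raised in Il23a-/- libraries. Eno1b, an enolase gene with a near-identical copy, Eno1, between which reads may be split, was named after its values were seen. It stood at 1.88 FPKM in Il12b-/- replicate 1, within the 1.36 to 2.33 FPKM of the controls, and at 45.5, 55.5, 24.0 and 24.2 FPKM in the other 4 (log2 fold change 3.05, limma adjusted p = 0.00421). Il12a-/- and Il23a-/- means of Eno1b were 2.47 ± 0.394 and 2.4 ± 0.79 FPKM.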

How the data were processed

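Poly(A)-selected RNA of distal colon was sequenced paired-end with a stranded kit, per the labels' protocols. The authors deposited FPKM per gene and library. TopHat2 2.0.10, Cufflinks 2.1.1, DESeq2 1.10.1 and GRCm38 are named in the submitters' processing notes. The role of each, the annotation release and whether counting used strand are not given in the sources used here. Gene positions came from a GENCODE annotation of GRCm38 (49195 of 49452 identifiers matched, 49109 with a symbol).

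FPKM were transformed to log2(FPKM + 0.5), and a gene entered the test if 5 or more libraries reached 0.2 FPKM. All 25 libraries entered 1 limma fit (3.58.1, R 4.3.3; trend, empirical Bayes, 5 group means, 20 residual degrees of freedom), two-sided, with Benjamini-Hochberg adjustment over 19266 genes. On simulated data for this comparison (19266 genes, 100 changed at each size) the fit recovered 86% of changes of 1 and 96% of changes of 2 on the log2 scale, with 12 false calls. Relative depth, read from the steps of low FPKM values, lay between 0.927 and 1.13 in the 10 libraries. Library features were compared by exact permutation tests (252 splits, smallest p 0.00794).

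Members and gene lists were chosen with earlier results of these data known. Genes named were the 4 targeted genes, the 12 largest differences in each direction (11 lower genes qualified) past the threshold, without overlap and with at least 1 FPKM in the higher group, up to 2 per direction and list (or the 2 smallest p), called NF-κB regulators and called neighbours of Il12b. Predicted genes and pseudogenes were counted, not named. A few genes of these lists are not reported here. Alternatives covered pseudocount, filter, scaling, samples, covariates and each library left out in turn. The sex term, the B cell covariate and leaving out both libraries that stood apart were added after seeing the data.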

Additional observations from a re-analysis of the deposited data

Results flagged for a closer look

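Of 178 groups of 5 values examined, 21 held 1 library far from the other 4 by Dixon's criterion (0.71). Chance flags about 1 in 20 groups, and the groups share libraries.

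Il12b-/- replicate 2 accounted for most of them. It was high for Il12a (1.08 FPKM, others 0.187 to 0.327), Ifi47 (12.5, others 6.6 to 7.22), Pttg1 (42.7, others 16 to 20.9), Map3k14 (6.31, others 4.68 to 5), the cell cycle genes Ccne1 (7.42, others 2.64 to 3.12) and Mcm3 (46.7, others 11.7 to 17.4), and the matrix genes Mmp9 (8.65, others 0.388 to 0.971), Mmp14 (70.2, others 33.6 to 39.2) and Timp1 (17.3, others 4.56 to 5.54). It was low for the cytochrome P450 gene Cyp2c68 (10.5, others 21.9 to 28.6) and for mt-Nd2 (584, others 1100 to 1370).

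In the remaining Il12b-/- libraries, Mzb1 was high in replicate 4 (19.7 FPKM, others 10.2 to 11.8) and Npas2 in replicate 1 (4.23, others 3.57 to 3.71). Among controls, Nemofl/fl replicate 1 was high for Mzb1 (5.93, others 2.64 to 3.15) and mt-Atp8 (27000, others 6960 to 9950) and low for the metabolic kinase gene Pdk4 (2.43, others 5.28 to 5.95) and the neuropeptide gene Vip (16.6, others 32 to 37.9). Nemofl/fl replicate 2 was low for Ceacam20 (72.1, others 91.3 to 98.2) and high for Stat4 (0.551, others 0.112 to 0.19). Ablim1 was high in Nemofl/fl replicate 4 (41.5, others 25.7 to 26.3) and Acaa1b in Nemofl/fl replicate 5 (0.24, others 0.0895 to 0.113).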

How the results depend on the processing

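The counts of 48 higher and 23 lower genes became 7 and 3 with the library code term, 21 and 8 without the Il12b-/- libraries with Xist, 25 and 12 with a sex term, 19 and 11 with the B cell covariate, and 28 and 15 with both libraries that stood apart left out. The Il12b-/- libraries with Xist are replicates 1 and 2, and replicate 2 is the one that stood apart. Leaving out replicate 2 alone gave 26 and 11. Leaving out both therefore does not separate sex from the other traits of replicate 2. Quantile normalization gave 51 and 52, and the fit of only the 10 libraries 67 and 17. Leaving out 1 library at a time gave 24 to 92 higher and 11 to 28 lower genes. 30 of the 71 genes passed in all 10 of these fits. In the 26 other settings, 9 genes passed wherever they were tested. Il12b and Zfp990, which are among the 9, were tested in 25 of the 26. The replicate block gave 53 and 32. The replicate numbers do not pair the samples: same-numbered libraries of the groups had a median correlation of centred values of 0.0595 (5 pairs) and differently numbered ones of -0.00208 (20 pairs). Log2 differences that changed sign were all of genes not past the threshold: Gcg (-0.157 with the library code term), Il12a (-0.0829 without libraries with Xist, -0.129 without Il12b-/- replicate 2, and up to 0.172 when 1 library was left out, -0.0798 with the sex term, -0.115 without both libraries that stood apart, -0.211 with the B cell covariate), Il23a (-0.00037 without Nemofl/fl replicate 3, up to 0.112 when 1 library was left out), Alox5ap (-0.0249 with the sex term) and Vip (-0.116 without both libraries that stood apart, -0.122 with the B cell covariate). The cause was not tested. Without counts, depth per gene is unknown and sets no limit on values listed at 0.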

Other observations

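Il12b-/- replicate 2 also differed from the rest of its group in inflammation genes outside the calls, chosen after their values were seen. S100a8, a calprotectin subunit of neutrophils and inflamed epithelium, stood at 0.226, 11.8, 0.722, 0.285 and 0.126 FPKM in Il12b-/- replicates 1 to 5 and averaged 58.3 ± 80.5 FPKM in NEMOIEC-KO. Ripk3, the necroptosis kinase, stood at 12.2, 40.2, 11.7, 9.95 and 9.37 FPKM, against 12.3 ± 1.04 FPKM in Nemofl/fl and 61.7 ± 24.8 FPKM in NEMOIEC-KO. Reg3g, an antimicrobial lectin, reached 3.35 FPKM in replicate 2 and at most 0.915 FPKM in the other 4. Cyp2c55, a colonocyte cytochrome P450, was lowest in replicate 2, at 5.08 FPKM against 45.6 to 102 FPKM in the other 4, and averaged 1.59 ± 1.18 FPKM in NEMOIEC-KO. For these 4 genes replicate 2 lay on the NEMOIEC-KO side of the other 4 Il12b-/- libraries.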
